A study of Mus musculus with 12 samples.

Results

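The S100A genes encode small calcium-binding proteins, and 10 of them (S100a1, S100a4, S100a6, S100a8, S100a9, S100a10, S100a11, S100a13, S100a14 and S100a16) were followed through sorted mouse colon adenoma cells. Members were chosen by gene symbol: of 17097 symbols with a probe set on the Affymetrix array, these 10 carried 11 probe sets, 1 each except for S100a16 with 2. For S100a16 the probe set with the higher mean over all arrays was used. Of the 10 genes, 9 exceeded a log2 signal of 4.40, the 40th percentile of all values, on at least 3 arrays and were among the 12595 genes tested. S100a4 did not. S100a8 exceeded that level on 8 of 12 arrays, and the other 8 tested members did so on all 12.

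Cells from colon adenomas of 3 mice, MKL347, MKL358 and MKL367, had been sorted by Mex3a status and Lgr5 status, and each mouse gave 1 array for each of 4 populations: double positive (Mex3a+ Lgr5+), Mex3a single positive (Mex3a+ Lgr5-), Lgr5 single positive (Mex3a- Lgr5+) and double negative (Mex3a- Lgr5-). Mex3a is an RNA-binding protein, and Lgr5 is a receptor that marks stem cells of the intestinal crypt. All mice were labelled ki/+, whose meaning, like the age of the mice and how the adenomas arose, was not given in the sources used here. Every array came from a pool of several adenomas of 1 mouse, amplified from 25 ng of total RNA, with 500 sorted cells per population for mouse MKL358 and 2000 for the other mice, so that cell number and mouse cannot be told apart.

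S100 proteins are small proteins with EF-hand calcium-binding loops that mostly act as dimers. On binding calcium they expose a surface that grips target proteins such as annexins, cytoskeletal proteins and enzymes, and some are also released and act on receptors on other cells. Most S100A genes sit side by side in 1 cluster. In the intestine several are made by epithelial cells, S100a8 and S100a9 are known mainly as abundant neutrophil proteins, and S100a4 is best known from fibroblasts and migrating cells.

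The sort was visible in the sorted genes themselves. Mex3a had a mean log2 signal of 7.02 ± 0.25 in Mex3a+ Lgr5+ and 6.91 ± 0.13 in Mex3a+ Lgr5- cells, against 6.44 ± 0.14 in Mex3a- Lgr5+ and 6.12 ± 0.32 in Mex3a- Lgr5- cells (SD, n = 3 mice each). Lgr5 was higher in Lgr5+ cells by 1.55 on the log2 scale (limma adjusted p = 2.41e-05), and it was also higher in Mex3a+ than in Mex3a- cells by 0.82 (adjusted p = 5.35e-05). That Mex3a difference of Lgr5 was 1.27 in Lgr5- cells (adjusted p = 4.92e-05) and 0.36 in Lgr5+ cells, where it was not called (adjusted p = 0.108). The dimmer Lgr5 probe set was called in Lgr5+ cells (0.46, limma adjusted p = 0.0134). Mex3a itself differed there by 0.58 (limma adjusted p = 0.00850, and 0.0579 without pairing by mouse). Its dimmer probe set differed there by 0.12 and was not called (adjusted p = 0.492). Array medians lay between 4.86 and 4.92, and correlations between mice within a population ran from 0.984 to 0.994. The epithelial markers Epcam (11.4 to 11.8), Krt8 (11.1 to 11.6) and Vil1 (8.45 to 10.1) were high on all arrays.

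Start regions of some S100A genes are shown because several neighbouring members moved together with Mex3a status, but not those of every member that moved. In the RefSeq annotation of GRCm38.p6 all 10 members lie on chromosome 3. The gene order is S100a1, S100a13, S100a14, S100a16, S100a4, S100a6, S100a8 and S100a9, with other S100 genes between some of them, and S100a11 and S100a10 follow beyond 54 further protein-coding genes. S100a1 (minus strand, start at base 90514330) and S100a13 (plus strand, start at base 90514435) point away from each other with 104 bases between their starts. That shared stretch, on the S100a1 strand and holding none of the motifs searched, and the 100 bases before the start of 4 other members were read 5′ to 3′ on the gene's strand, with motif matches in capitals.
S100a1 and S100a13, between the starts, chr3:90514331-90514434: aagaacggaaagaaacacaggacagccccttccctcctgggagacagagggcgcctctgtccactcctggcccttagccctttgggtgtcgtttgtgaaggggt
S100a16, second start, chr3:90541046-90541145, plus strand: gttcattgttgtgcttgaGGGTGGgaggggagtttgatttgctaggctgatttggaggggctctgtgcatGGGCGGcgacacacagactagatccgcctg
S100a11, chr3:93520396-93520495, plus strand: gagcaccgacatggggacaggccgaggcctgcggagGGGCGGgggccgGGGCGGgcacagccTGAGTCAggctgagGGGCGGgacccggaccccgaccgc
S100a8, chr3:90668971-90669070, plus strand: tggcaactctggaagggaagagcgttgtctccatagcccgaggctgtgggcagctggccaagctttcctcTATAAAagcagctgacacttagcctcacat
S100a4, chr3:90603670-90603769, plus strand: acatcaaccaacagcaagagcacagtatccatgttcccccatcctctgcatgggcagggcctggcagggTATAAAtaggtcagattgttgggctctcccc

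Motifs were searched on both strands in the 250 bases before each of 9 annotated starts of 8 members. No window was available for S100a10 and S100a14. The first S100a16 start, not printed above, held no match in the 100 bases before it. A TATA box (TATAAA) was found for S100a4 and S100a8, ending 25 and 24 bases before the start, and 12.4% of all 32851 windows of that length held one. A GC box (GGGCGG) was found at 3 of the 9 member windows and in 32.7% of all windows: S100a11 held 3 copies, and S100a9 and the second S100a16 start 1 each. The AP-1 motif (TGANTCA) was found for S100a11 and the second S100a16 start and in 6.75% of all windows. A CACCC box (CCACCC, or GGGTGG on the other strand) was found in 5 of 9 member windows against 28.1% of all windows, and the TCF and LEF motif (CTTTGA) for S100a11 alone, against 13.8%. These are matches of letters in RefSeq sequence, and binding was not measured.

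The S100A genes were lower in Mex3a+ than in Mex3a- adenoma cells. Averaged over both Lgr5 states, 8 of the 9 tested members fell in Mex3a+ cells and 0 rose, while over all tested genes 25.3% were lower and 15.9% higher. The falls ranged from 0.19 on the log2 scale for S100a11 to 1.18 for S100a1. The median difference of the 9 members was -0.85, against -0.01 over all tested genes. S100a8 and S100a9 were read as neutrophil signal, as the members' rule asked. Without them 6 of 7 members fell, with a median of -0.68. These are signals of sorted pools, in which fewer cells of a type and less RNA per cell cannot be told apart. When the pairing by mouse was left out, 5 of the 9 members were lower, against 17.3% of all tested genes, and S100a8, S100a9 and S100a13 no longer passed.

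**Figure D1:**
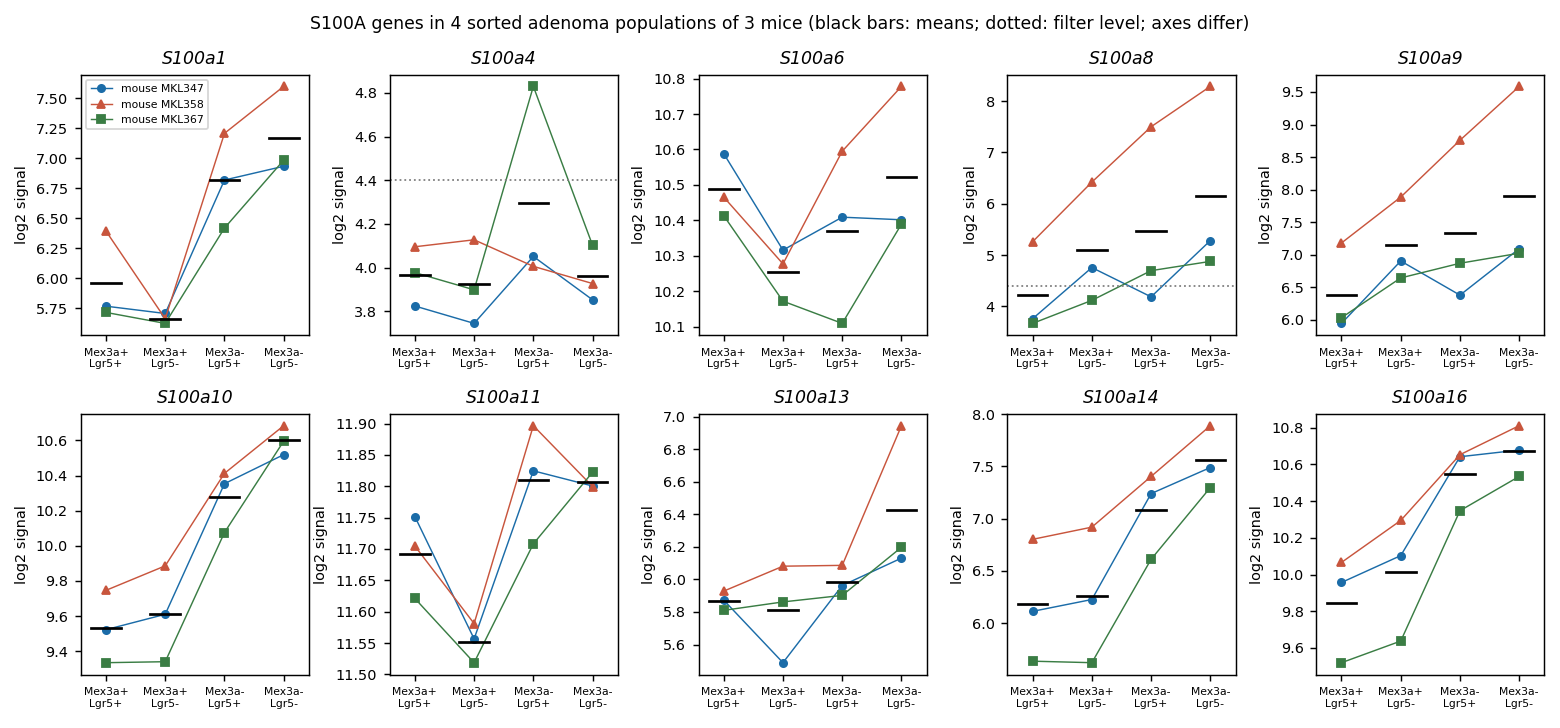
Log2 signal of each S100A gene (vertical axes, which differ between panels) in the 4 sorted populations (horizontal axis), with 1 line per mouse, black bars for the mean of 3 mice and a dotted line at the filter level of 4.40. Every gene except S100a4 and S100a6 drops from the Mex3a- to the Mex3a+ population of the same Lgr5 status in every mouse. S100a8 and S100a9 lie highest in mouse MKL358, and S100a4 stays under the filter level on 11 of 12 arrays.

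S100a1, a calcium sensor best known from muscle, where it regulates calcium release and uptake, was among the members with the largest average differences. Which member ranked first depended on the mice: without mouse MKL358 the difference was -1.26 for S100a14 and -1.08 for S100a1, and without mouse MKL347 it was -1.47 for S100a8 and -1.20 for S100a1. On the arrays of Mex3a+ Lgr5+ cells its log2 signal was 5.77, 6.39 and 5.72 in mice MKL347, MKL358 and MKL367, and in Mex3a+ Lgr5- cells it was 5.71, 5.66 and 5.63. In Mex3a- Lgr5+ cells it was 6.82, 7.21 and 6.42, and in Mex3a- Lgr5- cells 6.93, 7.60 and 6.98. The 6 Mex3a+ arrays lay below all 6 Mex3a- arrays, the highest at 6.39 and the lowest of the others at 6.42. S100a1 was 2.27-fold lower in Mex3a+ cells (log2 difference -1.18, SE 0.10, limma adjusted p = 2.20e-06), lower in 6 of 6 pairs of the same mouse and Lgr5 state. How many of all tested genes were lower in 6 of 6 pairs, or had no overlap, was not computed. This limit holds for each member described below as well.

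S100a14, an S100 protein of epithelia, fell by nearly as much. Its signal in Mex3a+ Lgr5+ cells was 6.11, 6.80 and 5.63 in mice MKL347, MKL358 and MKL367, in Mex3a+ Lgr5- cells 6.23, 6.92 and 5.62, in Mex3a- Lgr5+ cells 7.24, 7.40 and 6.61, and in Mex3a- Lgr5- cells 7.49, 7.89 and 7.30. The groups overlapped across mice, since mouse MKL358 was the highest and mouse MKL367 the lowest in every population, but within each mouse both Mex3a+ arrays lay below both Mex3a- arrays. The fall was 2.15-fold (log2 difference -1.10, SE 0.09, adjusted p = 2.14e-06), seen in 6 of 6 pairs.

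S100a10, also called p11, differs from other S100 proteins in that it does not need calcium. It forms a complex with annexin A2 at membranes, where it binds plasminogen. Its signal in Mex3a+ Lgr5+ cells was 9.52, 9.75 and 9.33 in mice MKL347, MKL358 and MKL367, in Mex3a+ Lgr5- cells 9.61, 9.89 and 9.34, in Mex3a- Lgr5+ cells 10.35, 10.41 and 10.08, and in Mex3a- Lgr5- cells 10.52, 10.68 and 10.60. The Mex3a+ arrays reached at most 9.89 and the Mex3a- arrays started at 10.08, without overlap. S100a10 fell 1.82-fold (log2 difference -0.87, SE 0.06, adjusted p = 3.25e-07), in 6 of 6 pairs.

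S100a16, a widely expressed member, was measured by both of its probe sets. With the brighter one the Mex3a+ arrays ranged from 9.52 to 10.29 and the Mex3a- arrays from 10.35 to 10.81, again without overlap. The fall was 1.60-fold (log2 difference -0.68, SE 0.05, adjusted p = 9.87e-07). The dimmer probe set gave a larger difference in the same direction, -1.07 (SE 0.08, adjusted p = 7.04e-07 over 19883 probe sets), with 7.61 to 8.50 on the Mex3a+ arrays and 8.78 to 9.48 on the Mex3a- arrays. The size of the fall thus differed between the probe sets of this gene and its direction did not. The brighter probe set is of a kind that may also detect other transcripts.

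S100a11, which binds annexin A1, and S100a13, which takes part in the release of growth factors that lack a signal peptide, changed less. S100a11 lay between 11.52 and 11.75 on the Mex3a+ arrays and between 11.71 and 11.90 on the Mex3a- arrays. Its fall of 1.14-fold (log2 difference -0.19, SE 0.03, adjusted p = 0.000339) was small and present in 6 of 6 pairs. S100a13 lay between 5.49 and 6.08 on the Mex3a+ arrays and between 5.90 and 6.95 on the Mex3a- arrays, with the highest value in Mex3a- Lgr5- cells of mouse MKL358. It fell 1.29-fold (log2 difference -0.36, SE 0.10, adjusted p = 0.0125, and 0.0800 without the pairing by mouse), in 6 of 6 pairs.

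S100a6, known as calcyclin and linked to proliferating cells, was the tested member without a call in the average comparison. Its signal ran from 10.17 to 10.59 on the Mex3a+ arrays and from 10.11 to 10.78 on the Mex3a- arrays, so the groups overlapped over nearly their whole range. The average difference was -0.07 with a 95% interval of -0.21 to 0.06 (limma adjusted p = 0.368), and 4 of 6 pairs were lower in Mex3a+ cells. In Lgr5+ cells the difference was above 0 in mice MKL347 (0.18) and MKL367 (0.30) and below 0 in mouse MKL358 (-0.13), whereas in Lgr5- cells all 3 mice were lower.

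S100a8 and S100a9 encode the partners of calprotectin, a protein complex that fills the cytoplasm of neutrophils. In mouse MKL358 the S100a8 signal was 5.26 in Mex3a+ Lgr5+, 6.42 in Mex3a+ Lgr5-, 7.50 in Mex3a- Lgr5+ and 8.29 in Mex3a- Lgr5- cells. In mouse MKL347 the same populations gave 3.76, 4.76, 4.18 and 5.28, and in mouse MKL367 they gave 3.67, 4.12, 4.70 and 4.88. Mouse MKL358 was higher than both other mice in every population, and in all 3 mice the Mex3a+ Lgr5+ cells were lowest and the Mex3a- Lgr5- cells highest. The S100a8 probe set is one that may also detect related transcripts.

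S100a9 was likewise highest in mouse MKL358 in every population. Its signal was 7.18, 7.89, 8.76 and 9.59 in mouse MKL358, 5.95, 6.91, 6.38 and 7.09 in mouse MKL347 and 6.04, 6.65, 6.87 and 7.02 in mouse MKL367, for the populations in the same order. S100a8 was lower in Mex3a+ cells (log2 difference -1.14, SE 0.22, adjusted p = 0.00133) and S100a9 1.81-fold lower (-0.85, SE 0.18, adjusted p = 0.00266), each in 6 of 6 pairs. Without mouse MKL358 the differences were -0.68 for S100a8 (adjusted p = 0.0102) and -0.46 for S100a9 (adjusted p = 0.0148), and without the pairing by mouse the adjusted p rose to 0.265 and 0.250.

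Neutrophil markers averaged higher on the arrays of mouse MKL358 where S100a8 and S100a9 were highest, but as a list they were called about as often as other genes. Of 30 neutrophil genes listed, 23 were on the array and 15 were tested, of which 4 were lower and 3 higher in Mex3a+ cells with a median of -0.29, beside 25.3% lower and 15.9% higher over all tested genes. Taken relative to each gene's mean, the 23 genes averaged 0.30 and 0.61 on the Mex3a- Lgr5+ and Mex3a- Lgr5- arrays of mouse MKL358, and between -0.20 and -0.0033 on the remaining 10 arrays. The Mex3a+ arrays of that mouse, where S100a8 was also above the other mice, stood at -0.15 and -0.04. The summed linear signal of the 23 genes, Cd177 included, overlapped between the populations. It was 2143 to 2996 in double positive and 1889 to 2409 in Mex3a single positive cells. In Lgr5 single positive cells it was 2180 to 2484, and in double negative cells 2240 to 3182. Cd177, which was higher in Mex3a+ cells, weighs heavily on this sum, with a log2 signal of 10.04 to 11.05. The overlap was not examined without Cd177, so these sums do not show whether the other neutrophil genes overlapped between the populations.

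Single markers differed in how closely they followed S100a8 and S100a9. Csf3r, a receptor of neutrophils, ranged from 4.76 to 5.64, with the highest value in Mex3a- Lgr5- cells of mouse MKL358, where Cxcr2 (4.52) also passed the filter level on its only array. Il1b, a cytokine of activated myeloid cells, was highest on the same array at 8.18 and fell by 0.83 in Mex3a+ cells (limma adjusted p = 0.000908). Cd177 was high on all 12 arrays (10.04 to 11.05) and was higher in Mex3a+ cells by 0.21 (adjusted p = 0.0201, and 0.212 without the pairing). Of 14 tested genes of macrophages and other myeloid cells 5 were lower and 0 higher, beside the same 25.3% and 15.9%, among them Tyrobp (-0.84, adjusted p = 0.00232). Adgre1 was under the filter level on all 12 arrays, and Csf1r ranged from 5.77 to 6.28. The part of neutrophils in the S100a8 and S100a9 differences was not tested.

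**Figure D2:**
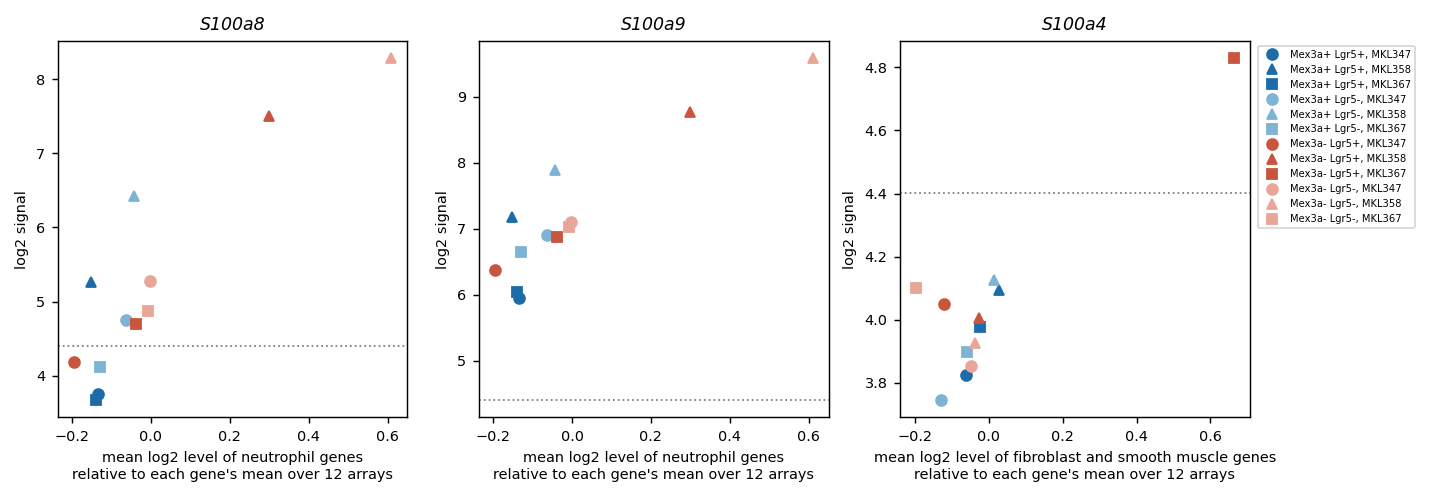
Log2 signal of S100a8, S100a9 and S100a4 (vertical axes) against the mean log2 level, relative to each gene's mean over 12 arrays, of 23 neutrophil genes (left and middle) or 26 fibroblast and smooth muscle genes (right), with 1 point per array, shapes for mice and colours for populations. The Mex3a- arrays of mouse MKL358 stand at the upper right for S100a8 (7.50 and 8.29) and S100a9 (8.76 and 9.59), and the Mex3a- Lgr5+ array of mouse MKL367 stands alone for S100a4 (4.83).

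S100a4, which binds non-muscle myosin and is used as a marker of fibroblasts, was not above the filter level except on 1 array. Its value was 4.83 in Mex3a- Lgr5+ cells of mouse MKL367, and the remaining 11 arrays gave 3.74 to 4.13. On the same array Col1a1, the collagen of connective tissue, reached 8.70 and Dcn 7.25, against at most 6.74 and 4.88 elsewhere, and the 26 fibroblast and smooth muscle genes averaged 0.66 relative to their means, against -0.20 to 0.03 on the others. Their summed signal ran from 3347 to 5226 in Mex3a- Lgr5+ cells, against 2801 to 3974 in the other populations, and Col1a2 and Pdgfra were under the filter level on all 12 arrays. Of 16 tested genes of this list 3 were higher and 1 lower in Mex3a+ cells, beside 15.9% higher and 25.3% lower over all tested genes. In a fit without the filter S100a4 had an average Mex3a difference of -0.18 (95% interval -0.41 to 0.05, limma adjusted p = 0.223).

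Epithelial genes also moved with Mex3a status. Of 14 epithelial markers 12 were lower and 1 higher in Mex3a+ cells, with a median of -0.48. Over all tested genes 25.3% were lower and 15.9% higher. The summed linear signal of the 14 markers was 17335 to 22905 in Mex3a+ and 24309 to 28814 in Mex3a- arrays. All 19 tested genes of mature colonocytes and goblet cells were lower, beside the same 25.3%. Their median was -1.67, and they summed to 5181 to 8327 against 15164 to 21420. Their part in the S100A differences was not tested.

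Within Lgr5+ cells, 6 of 9 members fell in Mex3a+ cells, against 13.2% of all tested genes. Within Lgr5- cells all 9 tested members fell, against 21.1%. S100a1 fell by 0.86 in Lgr5+ cells (SE 0.14, adjusted p = 0.00104) and by 1.51 in Lgr5- cells (SE 0.14, adjusted p = 1.24e-05). S100a14 fell by 0.90 (adjusted p = 0.000462, and 0.147 without the pairing by mouse) and by 1.30 (adjusted p = 2.10e-05). S100a10 fell by 0.75 and 0.99 and S100a16 by 0.70 and 0.66, so that these 4 genes were lower in both Lgr5 states. The dimmer S100a16 probe set differed by -0.96 in Lgr5+ cells (limma adjusted p = 0.000108) and by -1.18 in Lgr5- cells (adjusted p = 1.24e-05).

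S100a13 and S100a11 fell in Lgr5- cells, by 0.61 (limma adjusted p = 0.00615, and 0.0571 without the pairing) and 0.26 (adjusted p = 0.000643). In Lgr5+ cells their differences were -0.11 (95% interval -0.43 to 0.20, adjusted p = 0.640) and -0.12 (95% interval -0.21 to -0.02, adjusted p = 0.0684). S100a6 fell by 0.27 in Lgr5- cells (adjusted p = 0.0359) and measured 0.12 higher in Lgr5+ cells (adjusted p = 0.392). S100a8 fell by 1.23 and 1.05 (adjusted p = 0.0138 and 0.0232) and S100a9 by 0.95 and 0.76 (adjusted p = 0.0202 and 0.0430). Without the pairing by mouse 3 members were lower in Lgr5+ cells, S100a1, S100a10 and S100a16, and 5 in Lgr5- cells, these with S100a11 and S100a14. Of all 12595 tested genes, that fit called 1009 in Lgr5+ and 2125 in Lgr5- cells, in either direction.

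The calls of S100a6, S100a8 and S100a9 within an Lgr5 state rested on single mice or arrays. Without mouse MKL358 S100a8 differed by -0.73 in Lgr5+ and -0.64 in Lgr5- cells (limma adjusted p = 0.0567 and 0.0664), S100a9 by -0.28 in Lgr5- cells (0.235) and S100a6 by -0.15 in Lgr5- cells (0.158). S100a6 in Lgr5+ cells then measured 0.24 higher in Mex3a+ cells with an adjusted p of 0.0498. Without mouse MKL367 the adjusted p was 0.0522 for S100a8 in Lgr5- cells, 0.0718 for S100a9 in Lgr5+ and 0.0674 in Lgr5- cells, and 0.0924 for S100a6 in Lgr5- cells.

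Leaving out 1 array also ended some of these calls. For S100a8 in Lgr5+ cells the adjusted p was 0.0704 without the MKL358 array of double positive cells, and 0.0838 and 0.0607 without the MKL358 or MKL367 array of Lgr5 single positive cells. For S100a9 in Lgr5+ cells these were 0.102, 0.106 and 0.0763. In Lgr5- cells, S100a8 gave 0.117 and 0.0862 without the MKL358 or MKL367 array of Mex3a single positive cells, and 0.113 without the MKL358 array of double negative cells. S100a9 gave 0.228, 0.0984 and 0.209 without those, 0.0512 without the MKL347 array of double negative cells and 0.0529 without the MKL367 array of Lgr5 single positive cells. S100a6 gave 0.0638, 0.166 and 0.0589 without the MKL347, MKL358 or MKL367 array of Mex3a single positive cells, and 0.161 and 0.0894 without the MKL358 or MKL367 array of double negative cells. S100a11 in Lgr5+ cells passed without the MKL367 array of double negative cells, at 0.0446. The S100a1, S100a10, S100a14 and S100a16 calls in both Lgr5 states held without each mouse and each array in turn.

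**Figure D3:**
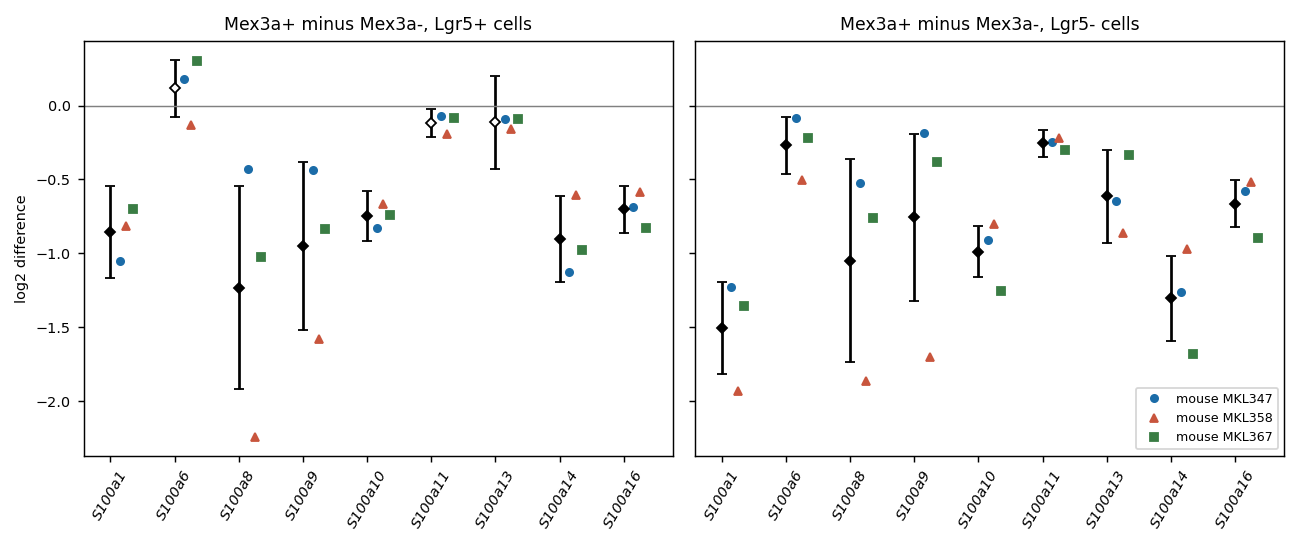
Log2 difference of Mex3a+ minus Mex3a- cells (vertical axis) for the 9 tested S100A genes in Lgr5+ (left) and Lgr5- cells (right), with black diamonds and 95% intervals from limma, filled where the adjusted p was under 0.05, and coloured points for single mice. Every gene shown except S100a6 lies below 0 in both panels in all 3 mice, and S100a8 spreads from -0.43 to -2.24 between mice in Lgr5+ cells.

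No difference between the Mex3a effects of the Lgr5 states passed the test. Over all genes the interaction gave 0 calls, which is 0% of the 12595, with 1078 genes at an unadjusted p under 0.05, and 0 calls and 359 genes without the pairing by mouse. S100a1 had an interaction of 0.65 (95% interval 0.21 to 1.09, limma adjusted p = 0.412) and S100a13 one of 0.50 (0.06 to 0.94, adjusted p = 0.520). S100a6 had one of 0.39 (0.11 to 0.66, adjusted p = 0.434) and S100a11 one of 0.14 (0.007 to 0.27, adjusted p = 0.558). For S100a16 the interaction was -0.04 (95% interval -0.26 to 0.19) with the brighter probe set. With the dimmer one it was 0.23 (SE 0.16, limma adjusted p = 0.771).

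Lgr5 status gave smaller differences among the S100A genes. Averaged over Mex3a states, 0 of the 9 members were called by limma, against 1.8% of all tested genes, and no member was called without the pairing by mouse either. S100a10 was -0.20 (adjusted p = 0.104), S100a14 -0.27 (0.188), S100a8 -0.78 (0.111) and S100a9 -0.66 (0.101). S100a8, S100a9, S100a10 and S100a16 were lower in Lgr5+ cells in 6 of 6 pairs of the same mouse and Mex3a state. S100a13 and S100a14 were lower in 5 pairs, S100a1 in 3, S100a6 in 2 and S100a11 in 1. The 6 pairs come from 3 mice, and the share of all genes lower in 6 of 6 pairs was not computed. In Mex3a+ cells 0 members were called, against 0.0715% of all genes, and in Mex3a- cells 0 against 1.62%. In Mex3a- cells the difference was -0.32 for S100a10 (95% interval -0.49 to -0.15, adjusted p = 0.0672) and -0.47 for S100a14 (-0.76 to -0.19, adjusted p = 0.106).

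The order of the 4 populations was similar for S100a10, S100a14 and S100a16: highest in Mex3a- Lgr5- cells, then Mex3a- Lgr5+, Mex3a+ Lgr5- and Mex3a+ Lgr5+. For S100a10 the means were 10.60 ± 0.08, 10.28 ± 0.18, 9.61 ± 0.27 and 9.53 ± 0.21 (SD, n = 3 mice). Within that order only the step between Mex3a- Lgr5+ and Mex3a+ Lgr5- passed the test, by 0.67 for S100a10 (limma adjusted p = 0.000138), 0.83 for S100a14 (0.000950, and 0.183 without the pairing) and 0.54 for S100a16 (0.000348, and 0.0937 without the pairing). S100a1 differed in that the lowest population was Mex3a+ Lgr5-, at 5.67 ± 0.04, with Mex3a+ Lgr5+ at 5.96 ± 0.38, and these neighbours were not called apart (adjusted p = 0.596).

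The single positive populations, Mex3a+ Lgr5- against Mex3a- Lgr5+, differed in 5 of 9 members (S100a1, S100a10, S100a11, S100a14 and S100a16), all lower in Mex3a+ Lgr5- cells, against 14.9% of all genes. For S100a8 and S100a9 this difference was -0.36 (95% interval -1.05 to 0.32) and -0.19 (-0.76 to 0.38). Double positive cells were lower than double negative cells in 7 of 9 members, against 19.1% of all genes. S100a8 was lower by 1.92 on the log2 scale (limma adjusted p = 0.000512, and 0.222 without the pairing), a value that rests on double positive arrays of which 2 of 3 (3.76 and 3.67) were under the filter level. S100a9 was 2.85-fold lower (0.000723, and 0.183). Without mouse MKL358 these differences were -1.37 and -1.07, beside -1.52 for S100a14 and -1.22 for S100a1. With all mice S100a14 was 2.60-fold and S100a1 2.32-fold lower. S100a13 was 1.47-fold lower (adjusted p = 0.0103), with 0.0775 when the pairing was left out, 0.101 when mouse MKL358 was and 0.0607 when only its double positive array was. S100a11 differed by -0.11 (adjusted p = 0.0563) and passed without the MKL358 array of either Lgr5 single positive (0.0485) or double negative cells (0.0437), and also with the stricter filter (0.0459), median centring (0.0217) and array weights (0.0442). The comparisons share arrays, so their counts are not independent.

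The members differed in how much of their variation over the 12 arrays went with Mex3a status. Of the sum of squares, Mex3a status took 82.6% for S100a10, 77.8% for S100a1, 71.4% for S100a16, 63.9% for S100a11 and 60.2% for S100a14. For S100a8 and S100a9 it took 16.6% and 17.1%, and differences between mice took 68.3% and 63.5%. The S100a8 mean was 6.87 in mouse MKL358, against 4.50 in MKL347 and 4.34 in MKL367. For S100a6 Mex3a status took 4.45%, the interaction 29.5% and the mouse 35.7%. Lgr5 status took at most 12.6%, in S100a4.

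**Figure D4:**
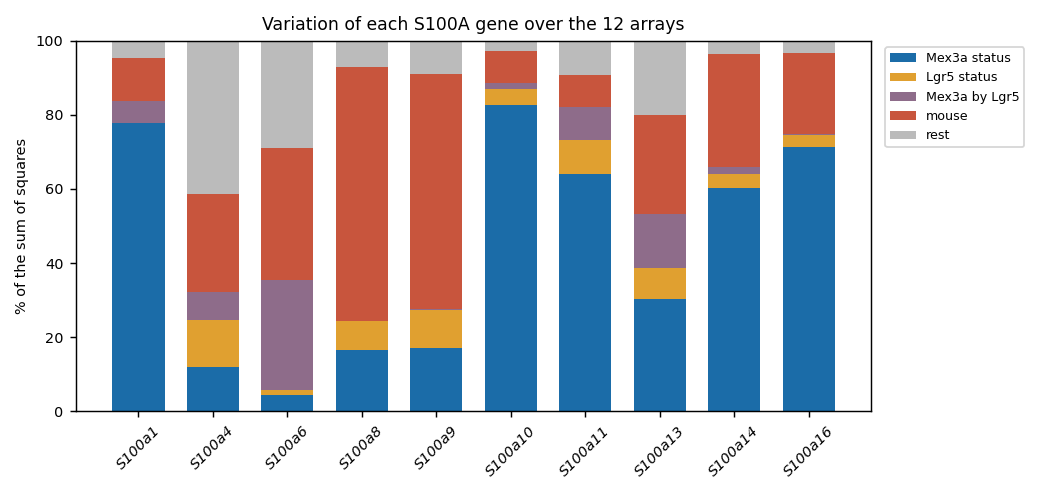
Percentage of each S100A gene's sum of squares over 12 arrays (vertical axis) that went with Mex3a status, Lgr5 status, their interaction, the mouse and the rest (stacked bars, 1 per gene). Mex3a status takes the largest share for S100a1, S100a10, S100a11, S100a13, S100a14 and S100a16. The mouse does for S100a8 (68.3%), S100a9 (63.5%) and S100a6 (35.7%), and the rest does for S100a4 (41.4%).

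Along the chromosome, the tested genes at the start of the cluster (S100a1, S100a13, S100a14 and S100a16) all fell in Mex3a+ cells, S100a6 further along was not called, and S100a11 and S100a10, adjacent to each other beyond the gap, differed in size at 1.14-fold and 1.82-fold. S100a1 and S100a13, whose starts are 104 bases apart, fell by 1.18 and 0.36. Of the members with a TATA box, S100a8 fell by 1.14 and S100a4 was under the filter level on 11 of 12 arrays.

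**Figure D5:**
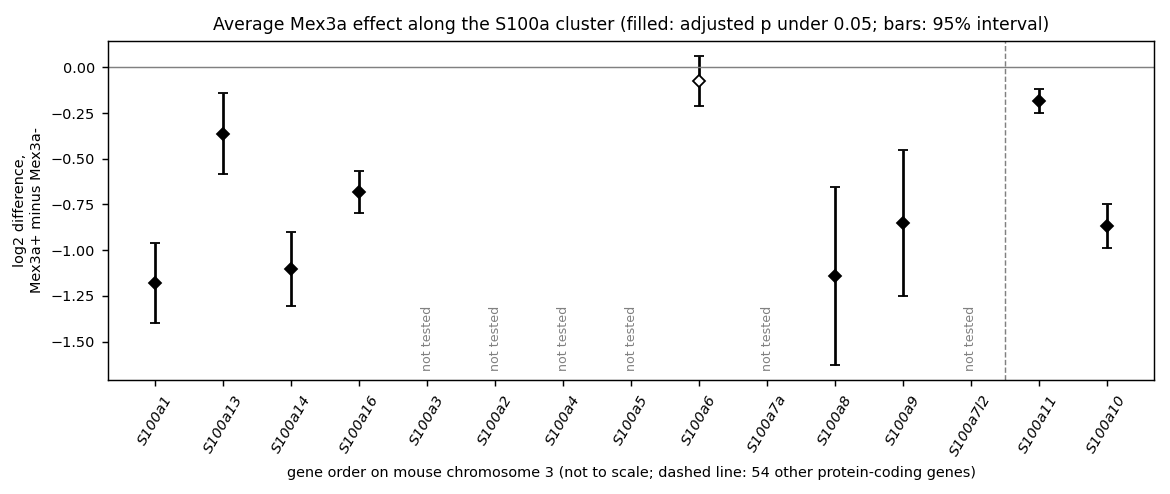
Average log2 difference of Mex3a+ minus Mex3a- cells with its 95% interval (vertical axis) for the S100 genes in their order on mouse chromosome 3 (horizontal axis, not to scale), filled where the adjusted p was under 0.05. S100a6 (-0.07) is the open symbol, and genes under the filter level or without a probe set are marked as not tested.

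After the mean of each mouse was taken off, S100a10, S100a14 and S100a16 followed each other closely over the 12 arrays. Pearson's r was 0.995 between S100a10 and S100a14, 0.981 between S100a10 and S100a16 and 0.973 between S100a14 and S100a16. S100a1 correlated with S100a10 at 0.924. S100a8 and S100a9 correlated with each other at 0.987 and with S100a10 at 0.739 and 0.700. S100a6 stood apart, with r between 0.151 and 0.593 against the other members. These are descriptions over arrays that share mice and that nearly all carry the difference between Mex3a+ and Mex3a- cells.

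Of all tested genes with a gene name outside the family, Anxa2, the gene of the annexin that S100a10 binds, was the most alike to S100a10 (r = 0.997), before Get4 (0.993) and Plxnb2 (0.993). For S100a14 the most alike were Serpinb5, an epithelial serpin, Anxa2 and Adh1 (r = 0.995, 0.995 and 0.995). For S100a16 they were Itga2, an integrin of collagen binding, Clic1 and Hsd17b2 (0.995, 0.994 and 0.993), and for S100a1 Ndufs1, a subunit of respiratory complex I, Il17rc and Il15ra (0.989, 0.988 and 0.987). The genes most like S100a8 were Il1b (0.964), Acod1 (0.957) and Lilrb4a (0.953), and those most like S100a9 were Zc3h12a (0.944), Lilrb4a (0.939) and Il1b (0.934), most of them known from activated myeloid cells. For S100a11 they were Capzb (0.980), Fdx1 (0.978) and Ndufa2 (0.968), for S100a13 Tmem62 (0.965), Pla2g4f (0.933) and Smim26 (0.930), and for S100a6 Slc22a18 (0.924), Lage3 (0.918) and Hsbp1 (0.918).

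Among 26 listed binding partners and receptors of S100 proteins, 24 were on the array and 22 were tested. In Mex3a+ cells 13 were lower, 4 higher and 5 not called, with a median of -0.20, beside 25.3% lower and 15.9% higher over all tested genes. Without the pairing by mouse 10 were lower, beside 17.3% of all tested genes, and 3 higher. That fit called 3422 of the 12595 tested genes in either direction, 2174 of them lower. Anxa2 ranged from 9.66 to 10.28 on the Mex3a+ and from 10.23 to 10.87 on the Mex3a- arrays and fell by 0.62 (SE 0.05, limma adjusted p = 9.79e-07). Within each mouse the Mex3a+ arrays of Anxa2 lay below the Mex3a- arrays, as they did for S100a10.

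Other partners went both ways. Anxa1, the partner of S100a11, fell by 1.20 (adjusted p = 5.95e-06), with 7.79 to 9.26 on the Mex3a+ and 8.85 to 10.18 on the Mex3a- arrays. Anxa11 (-0.59) and the gap junction gene Gja1 (-0.75) were also lower, whereas Anxa6 was higher by 1.29 (adjusted p = 2.16e-06) and Plat, the tissue plasminogen activator, by 1.52 (adjusted p = 1.04e-05). The receptors for released S100 proteins differed: Tlr4 fell by 0.46 (adjusted p = 0.00237), with its lowest value at 5.40 on the Mex3a+ arrays and at 5.83 on the Mex3a- arrays, and the groups overlapped. Ager, the RAGE receptor gene, ranged from 7.54 to 8.00 over all arrays and had a difference of 0.08 (95% interval -0.06 to 0.23, adjusted p = 0.348). No partner was called for the average Lgr5 comparison.

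Of the other S100 genes, 6 were on the array. S100a3, S100a5, S100a7l2 and S100b were under the filter level on all 12 arrays, and in a fit without the filter their average Mex3a differences lay between -0.09 and -0.0007. S100g, the intestinal calcium carrier calbindin D9k, ranged from 5.18 to 6.13 and was not called (-0.10, 95% interval -0.38 to 0.19, limma adjusted p = 0.589). S100pbp, which encodes a protein that binds S100P and is not itself an S100 protein, was higher in Mex3a+ cells by 0.27 (adjusted p = 0.0106, and 0.0283 without the pairing).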

How the data were processed

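The deposited values are log2 signals of 12 arrays, made with RMA per the submitters' processing notes. Which software, version and settings ran RMA is not given in the sources used here. The authors' normalization was kept unchanged. Probe sets were named through the platform annotation: of 45141, 28898 had 1 symbol, 551 several and 15692 none, and only the first were used, with the brightest probe set over 12 arrays for each symbol. The filter kept genes above 4.40 on at least 3 arrays, and precision is limited by having 3 arrays per population.

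The model for each of 12595 genes, in limma 3.58.1 under R 4.3.3, held 4 population means and the mouse as a block, with trended empirical Bayes moderation, 2-sided tests and Benjamini-Hochberg adjustment over all genes, called at an adjusted p under 0.05. SEs and intervals are limma's. The pairing comes from the mouse numbers in the titles. After the population means were taken off, pairs of arrays from 1 mouse had correlations of 0.349 to 0.694 (18 pairs), and pairs that differed in mouse and population had -0.465 to 0.152 (36 pairs). The fit was tested on simulated data.

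The alternatives were no block, no filter, no filter with no block, a stricter filter (60th percentile), quantile normalization of the deposited values, centring on array medians, the mean of all probe sets or each on its own, no trend, weights for arrays, and fits without each mouse or each array. Besides the members, the genes named were the sort genes, the other S100 genes, Anxa1, Anxa2, Ager, Tlr4 and the 4 further partners and 4 EF-hand genes with the smallest p for the average Mex3a effect, defining markers of each cell type, and the 3 genes most alike to each member. The members, lists, motifs and comparisons were chosen with earlier results of these data known. Promoter windows are RefSeq's for GRCm38.p6, read with Python 3.11.15, and figures were drawn with matplotlib 3.10.9.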

Additional observations from a re-analysis of the deposited data

Results flagged for a closer look

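S100a1 was the member whose Lgr5 differences ran in opposite directions in the Mex3a states, in every mouse. In Mex3a+ cells S100a1 measured higher in Lgr5+ than in Lgr5- cells by 0.06, 0.73 and 0.09 on the log2 scale in mice MKL347, MKL358 and MKL367, and in Mex3a- cells the same difference was -0.11, -0.39 and -0.57. The difference between the Mex3a effects of the Lgr5 states was 0.65 (SE 0.20, limma adjusted p = 0.412 over all genes), so it failed the correction for all genes tested.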

How the results depend on the processing

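The count of 8 lower members for the average Mex3a difference was 5 without the replicate block (the pairing by mouse) and 5 with neither block nor filter. In Lgr5+ cells 6 became 3 and 2, and in Lgr5- cells 9 became 5 and 5. Without the block but with the filter, 17.3% of all tested genes were lower for the average Mex3a difference. In either direction 1009 of the 12595 tested genes were then called in Lgr5+ and 2125 in Lgr5- cells. Without 1 mouse the average count stayed at 8, and the counts were 5 to 6 in Lgr5+ and 6 to 9 in Lgr5- cells. Without 1 array they were 8, 4 to 7, and 6 to 9. The average Lgr5 count was 0 in each setting run. Each of the 81 member results was run in 25 settings. Over all these values, 42 took another sign than the main fit, and 0 of them passed the test in either fit. In Lgr5- cells S100a6 lost its call with quantile normalization (adjusted p = 0.289), without the trend (0.0740) and with array weights (0.0778). S100a9 lost it there with no filter (0.0503), quantile normalization (0.0715), the mean of all probe sets (0.0551), no trend (0.0548) and array weights (0.0907). S100a11 in Lgr5+ cells gained a call with median centring (0.0379). Of all genes called for the average Mex3a difference 61.5% were lower, 52.5% with quantile normalization and 68.6% with median centring. In Lgr5- cells it was 66.0%, and 52.7% with quantile normalization. For the single positive populations it was 69.0% and 53.4%. Signals near the filter level, as for S100a4 and S100a8, limit what could be measured.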

Other observations

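Of 34 listed EF-hand calcium sensors outside the S100 family, 29 were on the array and 27 were tested. In Mex3a+ cells 13 were lower, 6 higher and 8 not called, with a median log2 difference of -0.09, beside 25.3% lower and 15.9% higher over all tested genes. Without the pairing by mouse 10 were lower, beside 17.3% of all genes, and 2 higher. Tesc, which encodes tescalcin, rose by 1.91 (limma adjusted p = 9.87e-07). Pls1, an actin bundler of the brush border, fell by 0.83 (adjusted p = 1.75e-06), Cib1 by 0.63 (adjusted p = 5.57e-07) and the protease gene Capn1 by 0.45 (adjusted p = 5.78e-06). For the average Lgr5 difference Cib1 alone was called, lower in Lgr5+ cells by 0.19 (adjusted p = 0.0483, and 0.914 without the pairing).

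Lymphocyte genes showed no calls: of 8 tested, 0 were called by limma for the average Mex3a difference, with and without the pairing by mouse. Over all tested genes 25.3% were lower and 15.9% higher with the pairing, and 17.3% were lower without it. In Mex3a+ cells 2 of 12 tested endothelial genes rose and 1 fell, which for the rises is close to the 15.9% of all tested genes.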
